A study of Mus musculus with 16 samples.

Results

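Transcripts of the mitochondrial respiratory complexes II to V were followed in gonadal white adipose tissue, the fat pad beside the epididymis, of male C57BL/6 mice aged 3 to 4 months. One group was fed and the other was fasted for 16 hours before sacrifice. Each group held 8 samples, all collected in the morning, and total RNA of each was hybridised to 1 Affymetrix whole-transcript array. The labels name no mutation or drug in either group. Whether each sample came from a different mouse is not said, and p-values then reflect only how these samples vary, which may be technical. The members were all genes of the array's annotation with a symbol of the Sdh subunits, of Uqcr, Cox4 to Cox8 or Atp5, or named Cyc1 or Cycs. The rule found 49 of the 22180 genes with a probe set of 1 symbol, of which 2, Atp5c1-ps and Uqcrh-ps1, are pseudogenes. Complex II had 4 members, complex III 8, complex IV 17 and complex V 17, and Cycs, the somatic cytochrome c, was counted on its own. Cox6c and Uqcr10 were on the array only in probe sets shared with a second symbol and were not used.

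As background, complex II oxidises succinate and hands its electrons to ubiquinone. Complex III moves them from ubiquinol to cytochrome c, and complex IV passes them from cytochrome c to oxygen. Complexes III and IV pump protons while doing so, and complex V, the ATP synthase, uses the proton gradient to make ATP. All of these complexes except complex II also hold subunits encoded by mitochondrial DNA. Several complex IV subunits exist in a ubiquitous form and in a form restricted to muscle, brown fat, testis or lung. White adipocytes hold few mitochondria beside brown ones.

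After the fast 16 of the 49 members were lower and none was higher, at a limma adjusted p under 0.05 over all 22180 genes. Over all genes 10.7% were called lower and 8.49% higher by the same rule. Most members are bright: 39 had a mean log2 value above the median of all genes, and 15 of these 39 were lower, against 19.3% of all genes above that median. Among the 10 members below the median 1, Cox7a1, was lower. The log2 fold change, fasted minus fed, was negative in 42 of 49 members, with a median of -0.15, beside a median of -0.0042 over all genes. All 16 falls were small, from 1.19-fold to 1.46-fold. When array medians were subtracted first, 10 members were called lower, beside 7.80% of all genes, and higher calls over all genes went from 44.3% to 54.7% of the total. In a bulk sample, fewer cells of a type and less RNA per cell cannot be told apart.

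**Figure D1:**
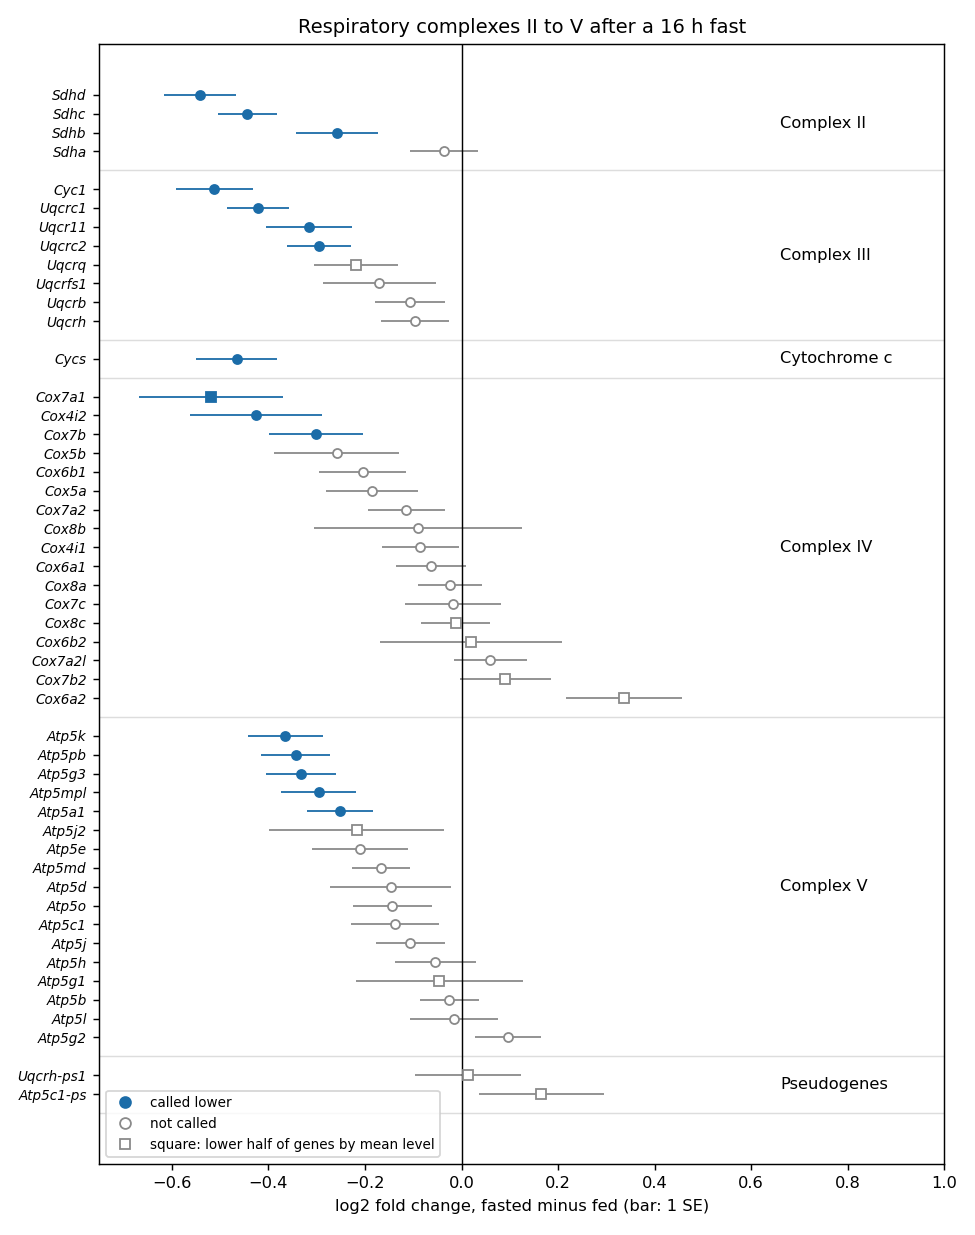
Log2 fold change of each of the 49 members (horizontal axis, fasted minus fed, n = 8 per group), with bars of 1 standard error, grouped by complex. Filled points were called lower and open points were not called; squares mark members with a mean value below the median of all genes. Falls reach -0.54 in Sdhd, and no member is called on the right of 0.

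In complex II 3 of 4 members fell, in complex III 4 of 8, in complex V 5 of 17 and in complex IV 3 of 17, and Cycs fell as well. The share was 17.6% in complex IV and 29.4% in complex V. Among members above the median of all genes, 2 of 12 fell in complex IV (16.7%) and 5 of 15 in complex V (33.3%), beside the 19.3% of all genes above it, so the complex IV count was near the background. The median log2 fold change was -0.35, -0.26, -0.15 and -0.085 for complexes II, III, V and IV. The complex IV count was 1 without any of fed replicates 1 and 6 and fasted replicates 3 and 7, taken singly. These differences between complexes were not tested, since the subunits of a complex are not replicates. For comparison, 19 of 33 complex I subunits were called lower and none higher (median -0.22), and 25 of 71 mitochondrial ribosomal proteins were lower and 1 was higher (median -0.17).

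Complex II carried the largest fall of all members, in its membrane anchor. Sdhd, the small cytochrome b subunit, had log2 values from 8.80 to 9.07 in fed arrays (median 8.96) and from 8.04 to 8.58 in fasted arrays (median 8.43). Every fasted array lay below every fed array. This was so for 3.45% of all genes, and for 745 of the 11090 genes above the median by mean value. Sdhd fell 1.46-fold (log2 fold change -0.54, SE 0.074, limma adjusted p = 2.91e-05). Sdhc, the large anchor subunit, ranged from 8.42 to 8.63 in fed arrays (median 8.52) and from 7.92 to 8.23 in fasted arrays (median 8.10), again with no overlap. It fell 1.36-fold (-0.44, SE 0.061, adjusted p = 2.98e-05).

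Of the catalytic pair of complex II, Sdhb was called and Sdha was not. Sdhb, the iron-sulfur subunit, had log2 values of 8.65 ± 0.14 in fed and 8.39 ± 0.19 in fasted arrays (SD, 8 arrays in each). It fell by 0.26 (limma adjusted p = 0.0386), and 3 of 8 fasted arrays lay below the lowest fed array. Leaving out a single array ended that call for 11 of the 16 arrays, the exceptions being fed replicate 2 and fasted replicates 4, 5, 6 and 8 (adjusted p up to 0.0748). It was also lost without fed replicates 2 and 3 and fasted replicate 7 together (0.0513) and after subtraction of array medians (0.173). Sdha, the flavoprotein that binds succinate, averaged 10.24 ± 0.10 in fed and 10.20 ± 0.14 in fasted arrays. Its log2 fold change was -0.036 (95% confidence interval -0.18 to 0.11, limma adjusted p = 0.816). Set against Sdha within each array, Sdhd was lower by 0.51 in fasted arrays, with the 8 fasted arrays below the 8 fed arrays, and Sdhc was lower by 0.41, with 7 fasted arrays below all fed ones. Sdhb was lower against Sdha by 0.22, with 3 fasted arrays below all fed ones and overlapping ranges. These ratios were chosen after the values were seen and were not tested.

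**Figure D2:**
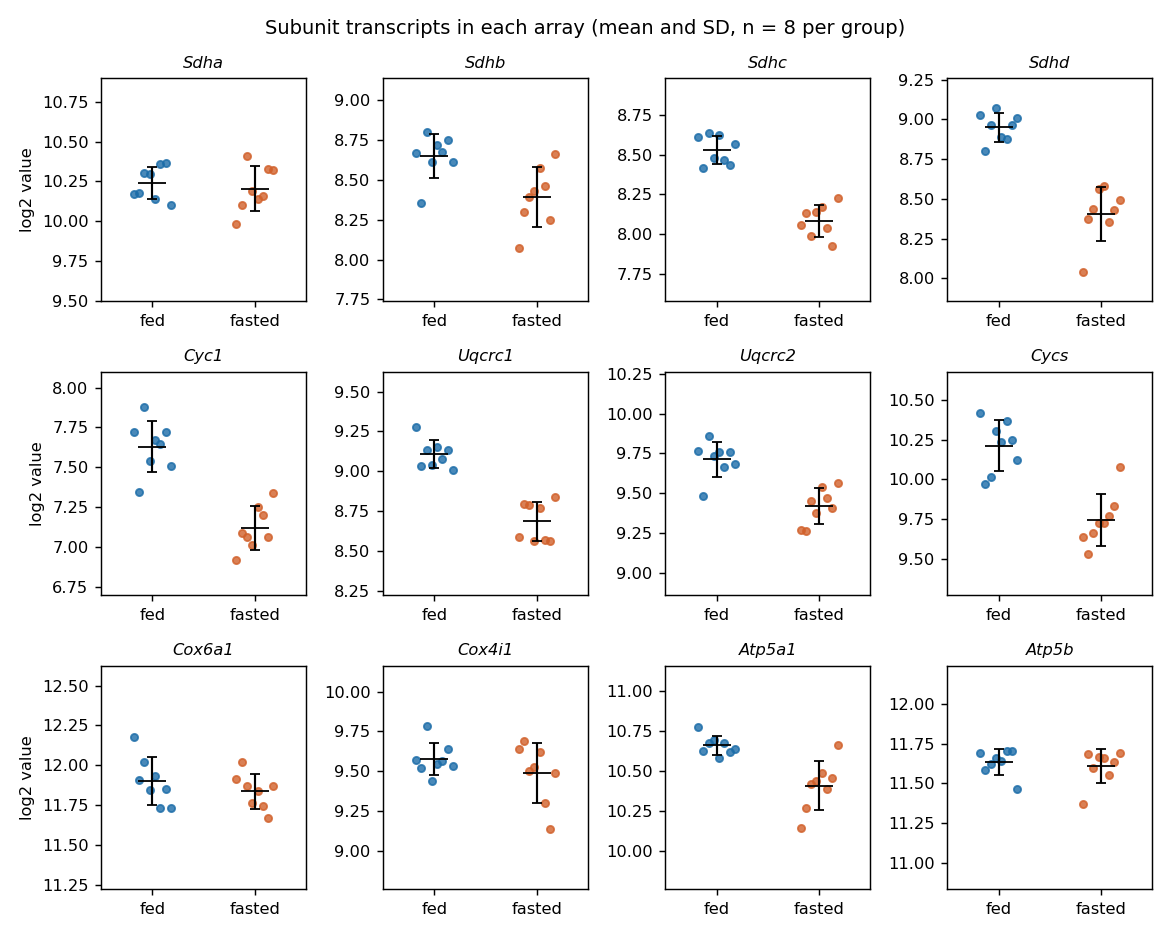
Log2 value of 12 members in each array (vertical axis; every panel spans the same range of 1.4 log2 units), with fed arrays in blue, fasted arrays in orange, and black bars for the mean and SD (n = 8 per group). Sdhc, Sdhd, Cyc1 and Uqcrc1 show no overlap between groups, whereas Sdha, Cox6a1, Cox4i1 and Atp5b overlap widely.

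In complex III the falls were in cytochrome c1 and the core proteins. Cyc1, which carries the haem that reduces cytochrome c, lay between 7.35 and 7.88 in fed arrays (median 7.66) and between 6.92 and 7.34 in fasted arrays (median 7.07). The groups touched but did not overlap, and Cyc1 fell 1.43-fold (log2 fold change -0.51, SE 0.080, limma adjusted p = 1.07e-04). Uqcrc1, core protein 1, averaged 9.11 ± 0.09 in fed and 8.69 ± 0.12 in fasted arrays, also without overlap, and fell 1.34-fold (adjusted p = 9.45e-05). Uqcrc2, core protein 2, fell 1.23-fold, with 6 of 8 fasted arrays below all fed arrays (adjusted p = 0.00303). The small subunit Uqcr11 fell 1.24-fold (adjusted p = 0.0163), a call lost after subtraction of array medians (0.0675). The other 4 members of complex III were not called. Uqcrfs1, the Rieske iron-sulfur protein that accepts electrons from ubiquinol, had 5.78 ± 0.17 in fed and 5.61 ± 0.31 in fasted arrays (95% confidence interval of the log2 fold change -0.42 to 0.08). Uqcrq, Uqcrb and Uqcrh, small subunits around the core, had log2 fold changes of -0.22, -0.11 and -0.096 (limma adjusted p = 0.0918, 0.382 and 0.431). Uqcrq was called lower without fed replicate 2 (0.0475) or fasted replicate 2 (0.0359).

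Cycs, which ferries electrons from complex III to complex IV, ranged from 9.97 to 10.42 in fed arrays (median 10.24) and from 9.53 to 10.08 in fasted arrays (median 9.73). Of the 8 fasted arrays 7 lay below all fed arrays, and the exception was fasted replicate 8. Cycs fell 1.38-fold (log2 fold change -0.47, SE 0.084, limma adjusted p = 4.69e-04). It has 5 probe sets with its symbol, 2 of them with identical values, and their log2 fold changes ran from -0.29 to -0.49. In a fit of all probe sets the second brightest had -0.33 and was not called (limma adjusted p = 0.0759), the identical pair had -0.49 and was called (0.0254), and the dimmest had -0.29 (0.0537). The Cycs call was thus lost with its dimmest probe set in place of the brightest (0.0550). Processed copies of Cycs are known in the mouse genome, and which copies a probe set reports was not tested.

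The ubiquitous subunits of complex IV gave 1 call among 6, all above the median of all genes by mean value, where 19.3% were called lower. Cox7b went from 8.29 ± 0.22 to 7.99 ± 0.17, a 1.23-fold fall (limma adjusted p = 0.0346). Its dimmer probe set gave 0.19 (adjusted p = 0.727), and subtraction of array medians ended the call (0.128). So did leaving out singly any of fed replicates 1, 3, 4, 5 and 6 or fasted replicates 2, 3, 4 and 7 (up to 0.0722). Cox6a1, the ubiquitous form of subunit 6A, averaged 11.90 ± 0.15 in fed and 11.84 ± 0.11 in fasted arrays. Cox8a averaged 10.96 ± 0.09 and 10.93 ± 0.13, and Cox4i1, which contacts the catalytic core, at 9.57 ± 0.10 and 9.49 ± 0.19. The 95% confidence intervals of their log2 fold changes were -0.22 to 0.09, -0.16 to 0.11 and -0.25 to 0.08. Cox6b1 and Cox7a2 had -0.21 and -0.11 (adjusted p = 0.132 and 0.395), and Cox6b1 was called lower with array weights (0.0491) or without fasted replicate 8 (0.0281). Of the subunits with a single form, Cox5b, Cox5a and Cox7c had -0.26, -0.19 and -0.018, and none was called (adjusted p = 0.201, 0.213 and 0.944). Cox7a2l, a relative of subunit 7A found in supercomplexes of complexes III and IV, had 0.059 (adjusted p = 0.694).

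The restricted forms of complex IV subunits had mean values near or below the median of all genes, and 2 of 7 were called lower, beside 10.7% of all genes. The counts of restricted and ubiquitous forms were not compared in a test. Cox7a1, the 7A form of heart, muscle and brown fat, ranged from 3.60 to 4.90 in fed arrays (median 4.41) and from 3.55 to 4.10 in fasted arrays (median 3.83). The groups overlapped: fed replicates 3 and 4, at 3.60 and 4.06, lay below the highest fasted array, replicate 2, at 4.10. Cox7a1 fell 1.43-fold (log2 fold change -0.52, SE 0.15, limma adjusted p = 0.0185). Cox4i2, the form of subunit 4 known from lung and oxygen-sensing cells, went from 4.66 ± 0.29 to 4.23 ± 0.30 (1.34-fold lower, adjusted p = 0.0337). Leaving out singly any of fed replicates 1, 6 and 8 or fasted replicates 1, 3, 5, 7 and 8 ended that call (up to 0.0710). It was also lost after subtraction of array medians (0.0741) and after cyclic loess (0.0564). Cox6a2, the heart and muscle form of 6A, moved the other way. It averaged 3.63 ± 0.19 in fed and 3.96 ± 0.31 in fasted arrays. Its log2 fold change of 0.34 (SE 0.12, limma adjusted p = 0.0586) was not called. Cox6a2 was, however, called higher after cyclic loess (0.0467) and without fed replicate 4, fed replicate 5 or fasted replicate 6 (down to 0.0332). Cox8b, the muscle and brown fat form of subunit 8, spread from 3.93 to 5.69 over the 16 arrays and had -0.091 (95% confidence interval -0.54 to 0.36). The testis forms Cox6b2, Cox7b2 and Cox8c had 0.019, 0.091 and -0.013, with adjusted p from 0.610 to 0.969.

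Markers of the cells that use these forms were read beside them. Of 14 skeletal muscle genes, 12 had mean values below the median of all genes and 1, Myl1, was called, with a log2 fold change of -1.35. The mean log2 level of the list, which includes Myl1, ran from 3.25 to 3.56 in fed and from 3.10 to 3.30 in fasted arrays. The other muscle genes had log2 fold changes from -0.27 (Myh2) to 0.062 (Myh4), and none was called. Of 8 brown adipocyte genes 5 were below that median, and Ucp1, the uncoupling protein that defines brown fat, stood at 2.85 ± 0.12 and 2.94 ± 0.34. The list's mean level ran from 3.66 to 4.09 in fed and from 3.68 to 3.91 in fasted arrays, with Prdm16 called lower by 0.26. Of 9 mural cell genes, which mark the pericytes and smooth muscle of vessels, 3 were called lower and none higher. These were Cspg4, Rgs5 and Notch3, lower by 1.08, 0.77 and 0.62 on the log2 scale. All 9 genes lay above the median of all genes by mean value, where 19.3% were called lower. The other 6 were not called: Myh11 and Cnn1 had -0.66 and -0.26, and Pdgfrb, Kcnj8, Higd1b and Abcc9 had 0.20, 0.20, 0.16 and 0.15. The mural list's mean level ran from 6.64 to 7.35 in fed and from 6.34 to 7.02 in fasted arrays. Of 11 male germ cell genes 1, Tekt2, was called lower, and 9 were below the median, with mean levels of 3.42 to 3.90 in fed and 3.34 to 3.81 in fasted arrays. The part of these cells in the changes of Cox7a1, Cox4i2 and Cox6a2 was not tested.

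Complex V gave 5 falls among 17 members, spread over its parts. Atp5a1, the alpha subunit of the catalytic head, ranged from 10.58 to 10.77 in fed arrays (median 10.66) and from 10.14 to 10.66 in fasted arrays (median 10.43). It fell 1.19-fold (limma adjusted p = 0.0119), a call lost after subtraction of array medians (0.0699). Atp5b, the beta subunit that holds the catalytic sites, had medians of 11.65 in both groups and a log2 fold change of -0.026 (95% confidence interval -0.15 to 0.10, adjusted p = 0.851). Within arrays the alpha subunit was lower by 0.23 against beta, with 7 of 8 fasted arrays below all fed arrays; this ratio was chosen after the values were seen and was not tested. The central stalk subunits Atp5c1, Atp5d and Atp5e had -0.14, -0.15 and -0.21, and none was called.

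In the peripheral stalk, which holds the head still, Atp5pb fell 1.27-fold, from 8.94 ± 0.06 to 8.60 ± 0.17 (limma adjusted p = 0.00182). The other 3 members there, Atp5o, Atp5j and Atp5h, had -0.14, -0.11 and -0.054 and were not called. In the membrane part, Atp5k, subunit e, fell 1.29-fold (adjusted p = 0.00221), with 7 of 8 fasted arrays below all fed arrays. Atp5mpl, a small proteolipid, fell 1.23-fold (adjusted p = 0.0104; 0.0627 after subtraction of array medians). Atp5md, which has a role in joining ATP synthases into dimers, had -0.17 (SE 0.059) and adjusted p = 0.0566. It was called lower under 4 other settings, of which cyclic loess gave the lowest adjusted p (0.0137), and without fed replicate 2, fasted replicate 4 or fasted replicate 8. Atp5l and Atp5j2 had -0.016 and -0.22, and neither was called.

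The proton-carrying ring of complex V is built from subunit c, which 3 genes, Atp5g1, Atp5g2 and Atp5g3, encode as the same mature protein behind different import sequences. Their transcripts did not move together. Atp5g3 ranged from 7.83 to 8.26 in fed arrays (median 8.07) and from 7.54 to 8.02 in fasted arrays (median 7.71), and fell 1.26-fold (log2 fold change -0.33, SE 0.073, limma adjusted p = 0.00247). Atp5g2 ranged from 10.13 to 10.50 in fed and from 10.23 to 10.49 in fasted arrays and had 0.096 (95% confidence interval -0.05 to 0.24); its second probe set gave 0.10. The log2 ratio of Atp5g2 to Atp5g3 within an array was higher in fasted arrays by 0.43 (SE 0.084; two-sided exact permutation p = 3.11e-04, adjusted p = 0.00342 over the 11 isoform pairs, n = 8 per group). The lowest fasted ratio, 2.44, was below the highest fed ratio, 2.46, so the groups overlapped slightly. Atp5g1 was dim, at 3.79 ± 0.36 and 3.74 ± 0.40, and its ratios to the other 2 genes changed by -0.14 and 0.29 (exact permutation adjusted p = 0.567 and 0.296).

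Of the 11 isoform pairs compared in this way, 3 passed, 2 of them with a dim member. The ratio of the muscle form Cox6a2 to Cox6a1 was higher in fasted arrays by 0.40 (SE 0.12, exact permutation adjusted p = 0.0222). Cox6a2 lay below the median of all genes, and the call was lost without fed replicates 2 and 3 and fasted replicate 7 (0.0641). The ratio of Cox7b2 to Cox7b was higher by 0.39 (SE 0.13, adjusted p = 0.0222), but fell by 0.10 with the dimmer Cox7b probe set (0.838) and was not called without fed replicate 1 or fed replicate 5 (up to 0.0519). Cox7b2 averaged 2.62 ± 0.19 in fed and 2.71 ± 0.18 in fasted arrays, at percentile 24.6 of all genes by mean value, and was not called itself (limma adjusted p = 0.610), so the ratio gives no result on Cox7b2 beyond the fall of Cox7b. The ratio of Cox7a1 to Cox7a2 was lower by 0.40 (SE 0.17, exact permutation adjusted p = 0.0773). Without fed replicate 3 the change was -0.52 (adjusted p = 0.0142) and without fasted replicate 7 it was -0.48 (0.0368). The ratio of Cox7a2l to Cox7a2 was higher by 0.17 (SE 0.071, adjusted p = 0.0773), and was called after cyclic loess (0.0316) and without fed replicate 2 or fasted replicate 2 (down to 0.0338). Cox4i2 to Cox4i1 had -0.34 (0.0977), Cox6b2 to Cox6b1 0.22 (0.454), Cox8b to Cox8a -0.067 (0.838) and Cox8c to Cox8a 0.011 (0.911), all adjusted over the 11 pairs in exact permutation tests.

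**Figure D3:**
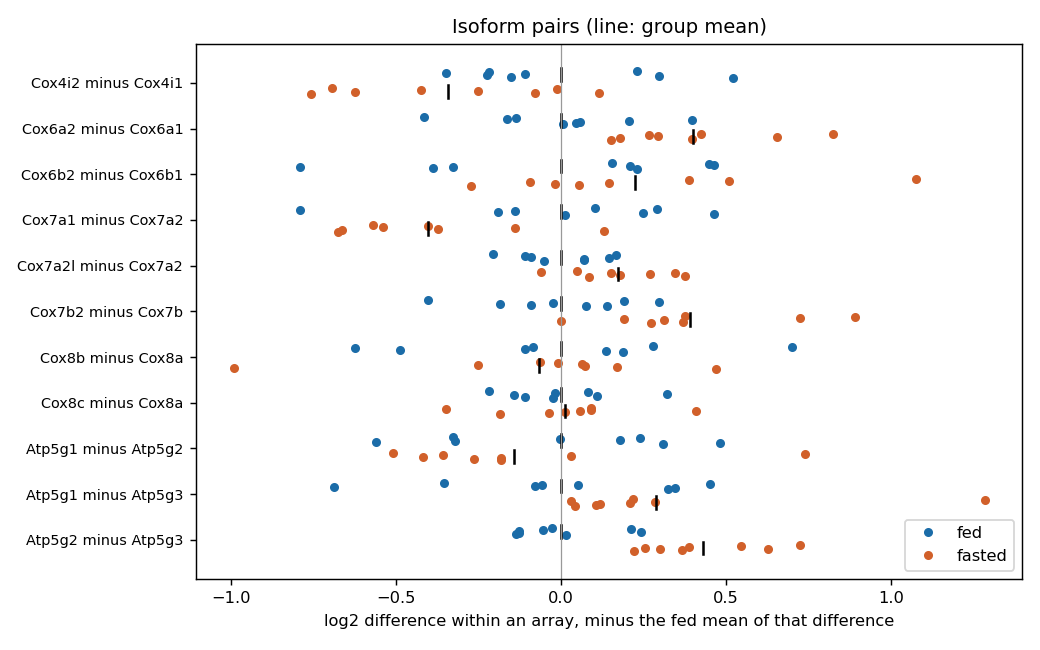
Log2 ratio of the 2 genes of each of the 11 isoform pairs in each array (horizontal axis), shifted so that the fed mean of each pair is 0; fed arrays are blue, fasted arrays orange, and short lines mark group means (n = 8 per group). The Atp5g2 to Atp5g3 ratio is shifted to the right in fasted arrays by 0.43, and fasted replicate 2 lies far to the right in the pairs with Atp5g1.

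Averaged over its members, each complex had a level in every array, expressed as the mean log2 difference from the fed mean of each gene. For complex II fed arrays lay between -0.15 and 0.084 and fasted arrays between -0.55 and -0.17, so that all 8 fasted arrays were below all fed arrays. For complex III fed arrays lay between -0.15 and 0.13 and fasted arrays between -0.40 and -0.069, with 7 fasted arrays below all fed ones. For complex V the fasted arrays ran from -0.29 to 0.012, with 4 below all fed arrays. For complex IV they ran from -0.31 to 0.039, with 5 below all fed arrays. The fasted means were -0.32 ± 0.12, -0.27 ± 0.10, -0.16 ± 0.10 and -0.11 ± 0.11 for complexes II, III, V and IV (SD, n = 8). The 33 complex I subunits, averaged in the same way, lay between -0.14 and 0.068 in fed arrays and between -0.41 and -0.15 in fasted arrays. There too all 8 fasted arrays were below all fed arrays. Each of these levels is a description with no test.

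**Figure D4:**
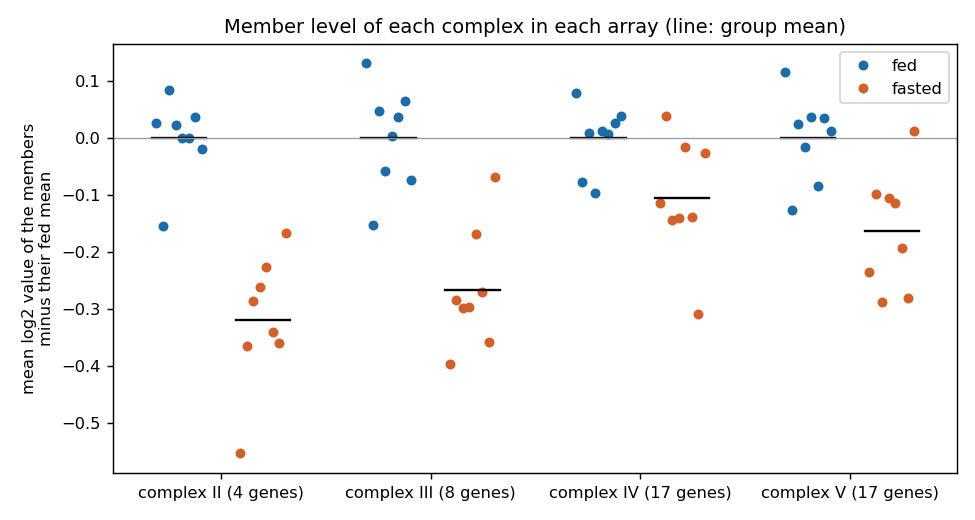
Mean log2 value of the members of each complex in each array, minus their fed mean (vertical axis); fed arrays are blue, fasted arrays orange, and lines mark group means (n = 8 per group). The groups are apart in complex II and meet in complexes III, IV and V; fasted replicate 1 is lowest in complex II, at -0.55.

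A pair of arrays narrowed the gap between the groups. Fed replicate 2 was the lowest fed array in 22 of 49 members, and fasted replicate 8 the highest fasted array in 23. Without fed replicate 2, 18 members were called lower, beside 11.0% of all genes. Without fasted replicate 8, 17 were called lower, beside 10.2% of all genes. Fed replicate 2 also had the highest mean log2 level of 12 motile cilia genes, 5.38, where fed arrays started at 2.86, and fasted replicate 7 followed at 4.91. All 12 genes had mean values below the median of all genes, and none was called. The mean level of 13 liver genes reached 8.86 in fed replicate 3 and 8.70 in fed replicate 2, and ran down to 5.98 in fed and 6.10 in fasted arrays, with 1 gene called higher and 1 lower. Without the arrays just named for cilia and liver genes, fed replicates 2 and 3 and fasted replicate 7, 15 members were called lower and none higher. Of 11 adipocyte markers 1 was lower and 3 were higher, and their mean level ran from 10.05 to 10.26 in fed and from 9.94 to 10.23 in fasted arrays. Among 12 endothelial genes 4 were higher and none lower, and among 12 macrophage genes 4 were higher and 1 lower. Among 9 mesothelial genes 1 was lower. All endothelial, macrophage and mesothelial genes and 10 of the 11 adipocyte markers had mean values above the median of all genes. Among all genes above it, 19.3% were called lower and 14.8% higher. The part of these cell types in the falls was not tested.

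The promoters of the members were read for letters of 4 factors known to drive respiratory genes. RefSeq promoters of assembly GRCm38.p6, from 250 bases before to 50 after a listed start, were found for 36 of the 49 members, 39 promoters in all, and set against all 32851 promoters of the table. The core of the NRF1 motif, GCGCATGC on either strand, was in 8 of 39 member promoters (20.5%) and in 2.71% of all promoters, or 5.14% of promoters of genes above the median by mean value. It was in 5 of 10 promoters of members that fell (Sdhb, Uqcrc1, Uqcr11, Cycs and Atp5k) and in 3 of 29 of members that were not called. Only 10 of the 16 members that fell had a listed promoter, and the 29 promoters belong to 26 members. The calls of Sdhb, Uqcr11 and Cycs were lost under at least 1 alternative. The ETS core CCGGAAG, bound by GABP among others, was in 13 of 39 member promoters, 4 of 10 of members that fell and 9 of 29 of members not called. It was in 8.86% of all promoters and in 1892 of the 11141 promoters of genes above the median. The YY1 letters GCCATNTTG were in 4 member promoters, 2 of 10 and 2 of 29, and in 2.51% of all promoters and 4.15% of those above the median. The ERR letters TCAAGGTCA were in 2, those of Sdhd and Atp5g3, and in 0.423% of all and 0.224% of those above the median. GCGCATGC is nearly its own reverse complement, so matches on both strands can overlap, as in Atp5g2. A match is a description of letters, not a binding site.

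The following stretches are shown because they belong to subunits whose transcripts moved apart or fell, each 5′ to 3′ on the gene's strand in GRCm38.p6, with matches in capitals. Sdhb lies at chr4:140961121-140961270, plus strand, and Atp5g2 at chr15:102671048-102671197, minus strand; both end 1 base before the start and hold the NRF1 letters, 54 and 42 bases before it. Cox7a1, at chr7:30184021-30184170, plus strand, holds none of the 4 motifs. Of Atp5g3 (chr2:73911359-73911388, minus strand), Cycs (chr6:50566611-50566640, minus strand) and Sdhd (chr9:50603877-50603906, minus strand), 30 bases around the match are given, with the ERR, NRF1 and ETS letters 52, 60 and 46 bases before the start. By RefSeq gene coordinates the Sdhd stretch overlaps another gene, Timm8b, and the Atp5g3 stretch overlaps the listed Atp5g3 gene itself.
Sdhb: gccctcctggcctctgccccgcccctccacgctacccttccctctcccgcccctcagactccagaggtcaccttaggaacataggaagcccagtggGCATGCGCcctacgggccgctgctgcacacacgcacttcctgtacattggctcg
Atp5g2: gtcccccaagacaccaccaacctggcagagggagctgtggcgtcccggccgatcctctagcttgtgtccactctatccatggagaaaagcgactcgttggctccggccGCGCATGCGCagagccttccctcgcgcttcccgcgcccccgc
Cox7a1: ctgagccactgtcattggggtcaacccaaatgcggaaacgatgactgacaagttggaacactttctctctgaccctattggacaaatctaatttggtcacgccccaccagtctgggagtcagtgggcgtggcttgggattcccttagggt
Atp5g3: tgttacaaagTGACCTTGAgcgtcttcccc
Cycs: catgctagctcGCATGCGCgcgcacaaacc
Sdhd: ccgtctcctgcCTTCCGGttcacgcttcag

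The c-ring pair that moved apart differs in these letters: Atp5g3, which fell, holds the ERR letters, and Atp5g2, which was not called, holds the NRF1 letters. NRF1 letters are also in Sdhb and Cycs, which fell. Any part of these letters in the changes was not tested.

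Some of the factors that put the complexes together fell, and the others were not called. Of 4 complex II assembly factors 2 fell, of 6 for complex III 4, of 22 for complex IV 10 and of 5 for complex V 3, and no factor was called higher; all but Lyrm7 among those named here had mean values above the median of all genes, where 19.3% were called lower. Sdhaf4 and Sdhaf3, which help mature the catalytic subunits of complex II, fell 1.52-fold and 1.32-fold (limma adjusted p = 0.00193 and 0.00890). Bcs1l, which inserts the Rieske protein into complex III, went from 6.66 ± 0.21 to 6.01 ± 0.18 with no overlap, a 1.57-fold fall (adjusted p = 6.24e-05). Uqcc3 and Ttc19, also of complex III, had 0.093 and 0.061, Surf1 of complex IV 0.13 and Oxa1l, listed with complex V, 0.097, and none of them was called. Lyrm7, a chaperone of the Rieske protein, and Uqcc1 fell 1.37-fold and 1.29-fold, and Uqcc2, named after its value was seen, 1.18-fold. For complex IV the largest falls were those of Higd1a, 1.75-fold and without overlap (adjusted p = 4.19e-05), Cmc2, 1.57-fold, and Coa3, 1.46-fold. Atpaf2, which assists the alpha subunit of complex V, fell 1.64-fold from 7.19 ± 0.14 to 6.48 ± 0.16 (adjusted p = 2.43e-06). Tmem242 and Tmem70 fell 1.31-fold and 1.24-fold.

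**Figure D5:**
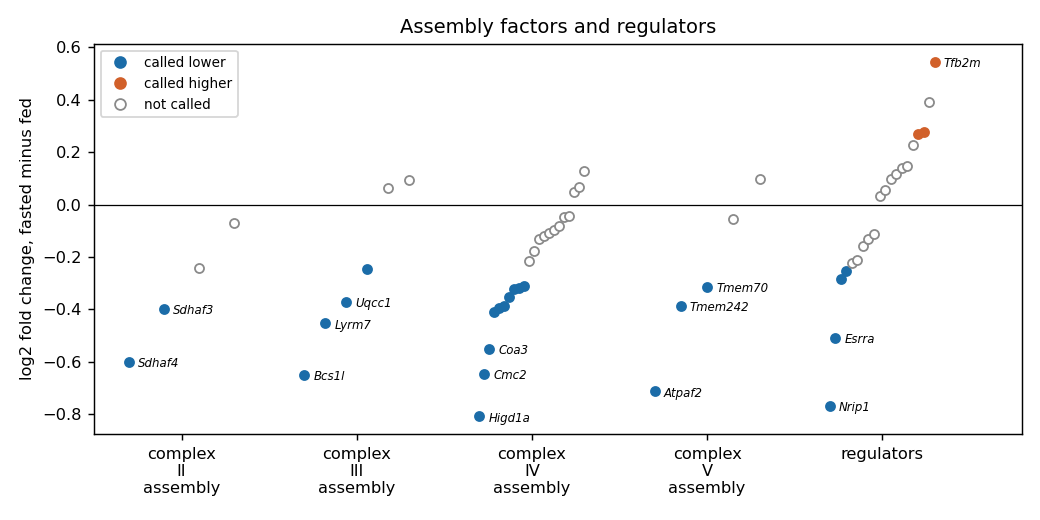
Log2 fold change (vertical axis, fasted minus fed, n = 8 per group) of each measured assembly factor of complexes II to V and of each regulator; blue points were called lower, orange points higher, and open points not called. Higd1a, at -0.81, is the lowest of the assembly factors, and called genes lie on both sides of 0 only among the regulators.

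Of the 6 listed subunits of complexes III to V that mitochondrial DNA encodes, 3 were measured, none of them of complex V. None of the 3 was called. CYTB, the cytochrome b of complex III, averaged 12.66 ± 0.09 in fed and 12.65 ± 0.07 in fasted arrays. COX1 averaged 12.71 ± 0.07 and 12.73 ± 0.07, and COX3 12.21 ± 0.09 and 12.18 ± 0.05. Their limma adjusted p were 0.943, 0.826 and 0.764 in that order. These 3 genes are near the top of the array's range, and whether their probes were saturated was not tested. Of 4 genes listed with complexes IV and V under other names (Ndufa4, Atpif1, Dmac2l and Dmac2) none was called. Ndufa4, now counted with complex IV, had -0.20 (limma adjusted p = 0.0948).

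Of 20 regulators of respiratory genes 4 were called lower and 3 higher, with a median of 0.045. Of the 20, 17 had mean values above the median of all genes, and among all genes above it 19.3% were lower and 14.8% higher, so the counts were near the background. Nrip1, a corepressor of oxidative genes in fat, fell 1.70-fold without overlap (limma adjusted p = 2.30e-04), and Esrra, the nuclear receptor ERR alpha, fell 1.42-fold (adjusted p = 0.0145). Tfb2m, a factor of mitochondrial transcription, rose 1.46-fold (adjusted p = 0.00127). The other called genes, named after their values were seen, were Hcfc1 and Sirt3, lower by 0.28 and 0.25, and Nrf1 and Gabpb1, higher by 0.28 and 0.27. Ppargc1a, the coactivator that drives mitochondrial biogenesis, had 0.39 (SE 0.195, adjusted p = 0.194).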

How the data were processed

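The deposited values are log2 probe set values of 16 arrays, made by the authors with RMA, which corrects background, normalizes between arrays and summarises probes, per the submitters' processing notes; the sources used here give neither its version nor any filter. Values lay between 0.99 and 13.2, and array medians between 3.60 and 3.69. A shift shared by most transcripts would not be visible, and the number of arrays limits the precision.

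Probe sets were named by the platform annotation, only those with 1 symbol were used, and of several probe sets of a gene the brightest on average was kept; 59 probe sets gave the 49 members. Fasted and fed arrays were compared in R 4.3.3 by limma 3.58.1, using lmFit and eBayes without covariates, with Benjamini-Hochberg adjustment over 22180 genes and a threshold of 0.05. Ratios of isoforms were compared with two-sided exact permutation tests over the arrays, adjusted over 11 pairs; the smallest p these can give is 1.55e-04. The scripts were tested on simulated data. Members, lists and alternatives were chosen with earlier results of these data known. All members are named; of each pathway list the 3 called genes with the largest change are named, or the gene with the lowest p. Alternatives were a filter on dim genes, other scalings, other eBayes settings, array weights, other probe sets, the replicate number as a block, and arrays left out. A list of red blood cell genes had 1 measured gene, Slc4a1, which was not called. Figures used matplotlib 3.10.9 in Python 3.11.15.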

Additional observations from a re-analysis of the deposited data

Results flagged for a closer look

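In 6 of 120 groups of 8 arrays (each member and each isoform ratio, fed and fasted) 1 array lay far from the others by Dixon's test, and chance gives about 1 in 20. Fasted replicate 1 was low in Sdhd, at 8.04 with the next array at 8.35, and in Atp5b, at 11.37 with the next at 11.55. Fed replicate 2 was low in Sdhb, at 8.35 with the next at 8.61. Fasted replicate 2 was high in Atp5g1, at 4.67 with the next at 3.82, and so in the log2 ratios of Atp5g1 to Atp5g2, at -5.76 against -6.46, and to Atp5g3, at -2.99 against -3.99.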

How the results depend on the processing

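Of the 16 calls 9 held under every alternative that covered them (Sdhc, Sdhd, Cyc1, Uqcrc1, Uqcrc2, Cox7a1, Atp5pb, Atp5g3 and Atp5k) and 7 were lost under at least 1. Cox7a1, below the median of all genes, was removed by the filter on dim genes and so not tested under it. Among called members only Cox7b and Cycs have further probe sets, and both lost the call with the dimmest. The choice of probe set could not change the values of the 9. Of the 33 uncalled members 4 were called under at least 1 alternative (Atp5md, Cox6a2, Cox6b1 and Uqcrq). With array medians subtracted, members called lower numbered 10 in all, 1 in complex IV and 3 in complex V. Cyclic loess gave 1 member called higher, Cox6a2. With arrays left out 1 at a time, members called lower ranged from 13 to 18 and those called higher from 0 to 1; by complex they ranged from 2 to 3 (II), 4 to 5 (III), 1 to 3 (IV) and 5 to 6 (V), and isoform pairs that passed from 2 to 4. With the lowest probe set of each gene, Cox7b had 0.19 and the Cox7b2 to Cox7b ratio -0.10. The replicate number as a block gave 14 members lower and 2 isoform pairs. For the pairs, an exact test flipped the signs of the 8 differences between same-numbered arrays. The smallest p it can give is 0.0078 before adjustment, so it is coarser than the main test. The calls lost were Sdhb (limma adjusted p = 0.0597), Cox4i2 (0.0836) and the Cox6a2 to Cox6a1 ratio (exact sign-flip adjusted p = 0.0573). Same-numbered arrays deviated together in few pairs (correlations from -0.22 to 0.22, above 0.1 in 2 of 8), and 2 of 8 correlated best with their own number, so the numbers were not taken as pairing. Dim genes are limited by background.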
